A study of Homo sapiens with 2 samples.

Results

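The oxygen-sensing genes described here were the 10 genes whose symbols match the prolyl hydroxylases EGLN1, EGLN2 and EGLN3, the asparaginyl hydroxylase HIF1AN, the ubiquitin ligase subunit VHL, the HIF alpha subunits HIF1A and EPAS1, and the hypoxia outputs CA9, ANGPTL4 and VEGFA. All 10 were found among the 58302 genes of the deposited tables, and all 10 passed the filter for measured genes, at least 1 CPM when averaged over both libraries (CPM is the count scaled to normalised library size). The tables came from RNA-seq of A549, an established human lung adenocarcinoma line grown in F12K medium with serum under standard conditions. One library was labelled as overexpressing PGC-1α, the coactivator encoded by PPARGC1A, and the other as the control for overexpression. The labels give no construct, no time after its delivery, no type of control and no oxygen level.

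Cells sense oxygen through enzymes that need it as a substrate. EGLN enzymes hydroxylate prolines of HIF alpha subunits, VHL binds the hydroxylated protein and directs its ubiquitination, and HIF1AN hydroxylates an asparagine and so blocks the recruitment of coactivators. When oxygen is short the alpha subunits escape this control, pair with ARNT and activate genes of glycolysis, pH regulation and blood vessel growth. EGLN3 and, more weakly, EGLN1 are themselves HIF targets, which closes a feedback loop. Control of HIF alpha by oxygen acts mainly on the protein, which RNA-seq does not measure.

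Library totals were 24334768 counts for the PGC-1α library and 27125084 for the control. PPARGC1A had 4654 counts in the PGC-1α library and 5 in the control, which matched the labels. A549 markers were present, with KRT8 at 3899 CPM in the PGC-1α library and 3868 CPM in the control, and of 8 such markers KRT19 at a log2 ratio of -1.13, CDH1 at -0.95 and AKR1B10 at -0.60 were at least 1.5-fold lower in the PGC-1α library. The lung lineage factor NKX2-1 had 0 counts in both libraries, and 5 alveolar markers summed to 1.82 CPM in the PGC-1α library and 1.72 CPM in the control. Endothelial markers summed to 9.13 CPM in the PGC-1α library and 9.75 CPM in the control, and fibroblast markers to 49.1 CPM in the PGC-1α library and 36.3 CPM in the control. Immune markers summed to 3.59 CPM in the PGC-1α library and 6.20 CPM in the control, and 5 erythroid markers to 1 count in the PGC-1α library and 3 in the control. Of the immune sum, CD14 gave 3.39 CPM in the PGC-1α library and 6.01 CPM in the control. The part of other cells in the results was not tested. With 1 library per group no difference below has a replicate check or a test. The 95% interval given with each ratio reflects counting error alone. Calls required a difference of 1.5-fold or more together with an interval that does not reach equality. By this rule 5.3% of the 14154 measured genes were called higher in the PGC-1α library and 3.92% lower.

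Among the 10 genes, 4 were called higher (EGLN3, ANGPTL4, CA9 and VEGFA) and 1 lower (HIF1A), against 5.3% and 3.92% of all measured genes, while EGLN1, EGLN2, HIF1AN, VHL and EPAS1 were under 1.5-fold. Their median log2 ratio was 0.18, against -0.01 over all measured genes, and 8 of the 10 had ratios above 1. Among these 8, the intervals of HIF1AN and VHL included equality. The genes called higher were thus 1 of the hydroxylases and all 3 outputs, and the gene called lower encodes an alpha subunit. These counts are a description, with no test.

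**Figure D1:**
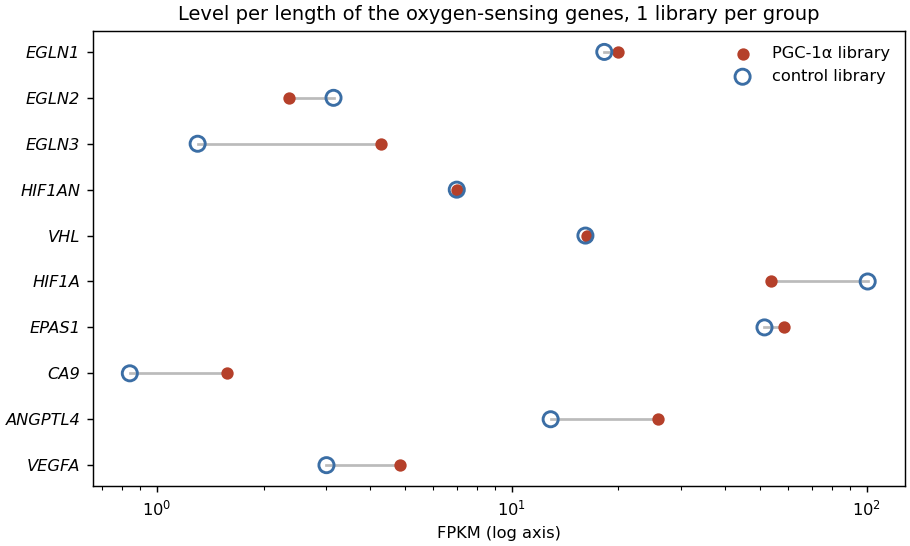
Level of each oxygen-sensing gene in FPKM (the authors' count scaled to gene length and library size, log axis) in the PGC-1α library (filled) and in the control library (open ring); each point is 1 library. EGLN3, CA9, ANGPTL4 and VEGFA lay to the right in the PGC-1α library, HIF1A lay to the left, and HIF1AN and VHL nearly coincided.

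HIF1A, which encodes HIF-1α (ENSG00000100644, chromosome 14, 61695513 to 61748259), had 6738 counts in the PGC-1α library and 14055 in the control. This corresponded to 278 CPM in the PGC-1α library and 515 CPM in the control, and to a log2 ratio of -0.89 (-0.93 to -0.85), or 46.0% less. In a culture measured in bulk, fewer cells expressing a gene and less RNA per cell cannot be told apart. HIF1A was an abundant gene, and among 2115 genes that averaged at least 100 CPM its ratio was the 3rd lowest, a rank looked up after its value was seen. Of these 2115 genes, 0.946% were called lower and 2.70% higher. On the opposite strand, HIF1A-AS1 shared 117 exon bases, or 2.27% of those of HIF1A, and had 4 counts in the PGC-1α library and 15 in the control.

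EPAS1, which encodes HIF-2α (ENSG00000116016, chromosome 2, 46293667 to 46386703), had 10447 counts in the PGC-1α library and 10200 in the control. Its levels were 432 CPM in the PGC-1α library and 374 CPM in the control, a log2 ratio of 0.21 (0.17 to 0.25), under 1.5-fold. No other gene of the annotation overlapped it. The alpha subunits therefore differed in opposite directions, and their order by length-normalised level was reversed. In the PGC-1α library EPAS1 stood at 58.7 FPKM (57.6 to 59.9) and HIF1A at 53.7 FPKM (52.4 to 55.0), while in the control HIF1A stood at 101 FPKM (99.1 to 102) and EPAS1 at 51.6 FPKM (50.6 to 52.6). HIF1A made up 47.8% of the summed FPKM of HIF1A, EPAS1 and HIF3A in the PGC-1α library and 66.1% in the control. HIF3A had 1 count in each library. The ratio of HIF1A to EPAS1 counts, which does not depend on how the libraries are scaled, differed by -1.10 on the log2 scale (-1.15 to -1.04).

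**Figure D2:**
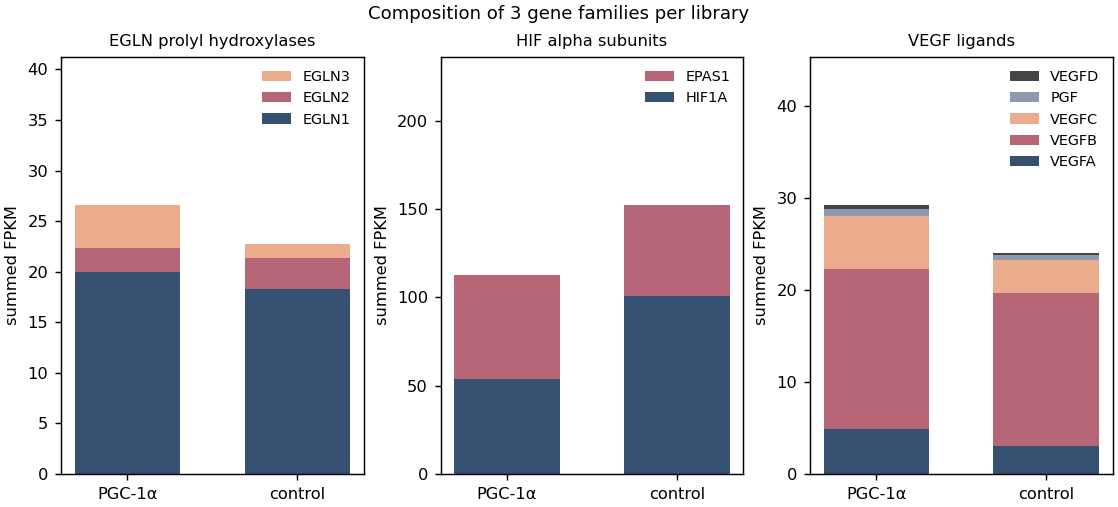
Summed FPKM of the EGLN prolyl hydroxylases, the HIF alpha subunits and the VEGF ligands, with the PGC-1α library at the left of each panel and the control at the right; each bar is 1 library, divided by gene. HIF3A, with 1 count per library, is left out. FPKM divides by the union of each gene's exons, so the parts of a bar depend on that length. In the PGC-1α library EGLN3 filled a larger part of its family's bar than in the control, and HIF1A a smaller part of its own.

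The partner and the cofactors of the alpha subunits showed no difference of this size. Of 9 listed, 7 were measured, none was called in either direction, and their median log2 ratio was -0.09. Of all measured genes 5.3% were called higher and 3.92% lower, and at such shares a list of 7 may hold none. The most expressed of the 7 were the acetyltransferase genes CREBBP at -0.09 and EP300 at -0.08 and the neuronal partner ARNT2 at 0.27. ARNT, the usual partner of both alpha subunits, had 783 counts in the PGC-1α library and 1034 in the control, a log2 ratio of -0.23 (-0.36 to -0.09), and CITED2, which competes with HIF alpha for CREBBP and EP300, stood at -0.42 (-0.63 to -0.21); these 2 were named after their values were seen. In FPKM, HIF1A exceeded ARNT by 10.9 times in the PGC-1α library and 17.2 times in the control. ARNT is not the only partner gene present at such a level. ARNT2 stood at 5.09 FPKM in the PGC-1α library and 4.28 FPKM in the control, and ARNT at 4.93 FPKM and 5.86 FPKM.

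EGLN3, the most strongly induced of the prolyl hydroxylases under hypoxia (ENSG00000129521, chromosome 14, 33924231 to 34462774), showed the largest ratio of the 10 genes. It had 766 counts in the PGC-1α library and 260 in the control, or 31.6 CPM in the PGC-1α library and 9.53 CPM in the control. The log2 ratio was 1.73 (1.53 to 1.94), a fold of 3.32 (2.88 to 3.84), higher than that of 99.6% of measured genes. The gene's span holds the more abundant SPTSSA, but the exons of the 2 genes shared 0 bases, and SPTSSA stood at -0.16. The 5 measured protein-coding genes within 500 kb of EGLN3, SPTSSA included, had log2 ratios between -0.21 and 0.19.

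EGLN1, the main hydroxylase of HIF alpha in most cells (ENSG00000135766, chromosome 1, 231363751 to 231425044), had 3533 counts in the PGC-1α library and 3590 in the control. Its log2 ratio was 0.15 (0.08 to 0.22), above 0 beyond counting error but under 1.5-fold. EGLN2 (ENSG00000269858, chromosome 19, 40798996 to 40808433), a prolyl hydroxylase that HIF does not induce, was the only one of the 4 hydroxylase genes with a ratio below 1. It had 379 counts in the PGC-1α library and 561 in the control, a log2 ratio of -0.39 (-0.59 to -0.20). Its level is uncertain, because 30.6% of its exon bases lie in the readthrough gene RAB4B-EGLN2, which was listed with 0 counts in both libraries. No source used here says how the authors assigned reads from shared exons. The hypoxia-related cytokine gene MIF, usually abundant in cultured cells, had 14 counts in the PGC-1α library and 33 in the control, and 61.9% and 32.2% of its exon bases are shared with MIF-AS1 and AP000350.4. The part of such sharing in the level of EGLN2 was not tested.

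The mix of prolyl hydroxylases thus differed more than their sum. EGLN1 made up 75.0% of their summed FPKM in the PGC-1α library and 80.4% in the control, EGLN3 16.1% in the PGC-1α library and 5.75% in the control, and EGLN2 8.89% in the PGC-1α library and 13.9% in the control. The sums were 26.6 FPKM in the PGC-1α library and 22.7 FPKM in the control. EGLN3 was the more abundant of the 2 minor genes in the PGC-1α library and EGLN2 in the control. The ratio of EGLN3 to EGLN1 counts differed by 1.58 on the log2 scale (1.37 to 1.80), and that of EGLN3 to EGLN2 counts by 2.12 (1.85 to 2.40).

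HIF1AN, which encodes the asparaginyl hydroxylase known as FIH (ENSG00000166135, chromosome 10, 100529072 to 100559998), had 2381 counts in the PGC-1α library and 2647 in the control, a log2 ratio of 0.02 (-0.06 to 0.10). VHL, the substrate-binding subunit of the ubiquitin ligase (ENSG00000134086, chromosome 3, 10141008 to 10152220), had 1673 counts in the PGC-1α library and 1842 in the control, a log2 ratio of 0.03 (-0.06 to 0.13). As folds, these intervals ran from 0.959 to 1.07 for HIF1AN and from 0.957 to 1.09 for VHL. Of 14 further genes of the VHL ligase and of HIF stability none was called, and their median was -0.05. Of all measured genes 5.3% were called higher and 3.92% lower, and at such shares a list of 14 may hold none. The most expressed of the 14 were the chaperone genes HSP90AA1 at -0.09 and HSP90AB1 at -0.06 and the scaffold gene RACK1 at -0.15. The highest was SIAH2, a ligase that targets hydroxylases, at 0.36 (0.17 to 0.55), named after its value was seen. Of 25 other dioxygenases that use 2-oxoglutarate and oxygen, KDM3A, KDM4B, P4HA1, P4HA2 and PLOD2 also count among the hypoxia-inducible genes described below. Among the 25, the median was -0.003 and none was called lower. There, 1 was called higher, or 4%, near the 5.3% of all measured genes. That gene was the histone demethylase KDM6B, with 1220 counts in the PGC-1α library and 873 in the control and a log2 ratio of 0.65 (0.53 to 0.78).

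**Figure D3:**
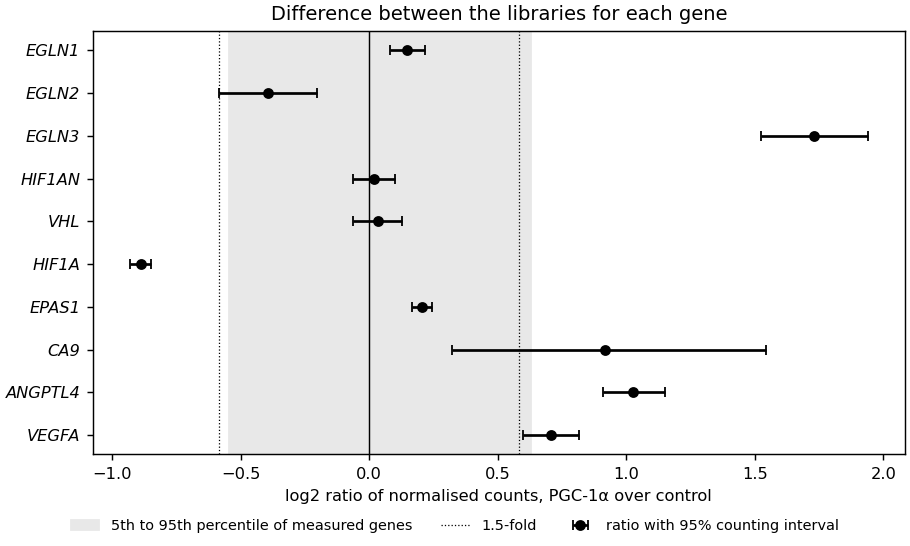
Log2 ratio of normalised counts, PGC-1α library over control, for each oxygen-sensing gene, with its 95% counting interval; the grey band spans the 5th to 95th percentile of measured genes, -0.54 to 0.63, and dotted lines mark 1.5-fold. EGLN3, ANGPTL4, CA9 and VEGFA lay above the band and HIF1A below it, and the lower ends of the CA9 and VEGFA intervals reached into it.

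ANGPTL4, a secreted inhibitor of lipoprotein lipase that both HIF and PPAR receptors induce (ENSG00000167772, chromosome 19, 8363289 to 8374373), had 1568 counts in the PGC-1α library and 866 in the control. Its levels were 64.8 CPM in the PGC-1α library and 31.8 CPM in the control, a log2 ratio of 1.03 (0.91 to 1.15), or 2.04-fold. VEGFA, the growth factor gene for blood vessels (ENSG00000112715, chromosome 6, 43770184 to 43786487), had 1703 counts in the PGC-1α library and 1176 in the control, a log2 ratio of 0.71 (0.60 to 0.81). CA9, a membrane carbonic anhydrase often used as a marker of tumour hypoxia (ENSG00000107159, chromosome 9, 35673856 to 35681159), had 64 counts in the PGC-1α library and 38 in the control, a log2 ratio of 0.92 (0.32 to 1.54). CA9 was the least expressed of the 10 genes, at 1.57 FPKM in the PGC-1α library and 0.840 FPKM in the control. Its value is also uncertain because 38.5% of its exon bases are shared with ARHGEF39, which lies on the opposite strand, is more abundant and stood at 0.19, and no strand setting is stated. At the stricter 2-fold threshold EGLN3 and ANGPTL4 were called higher and none lower, against 1.75% and 1.16% of measured genes.

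A match to the HIF core motif near the start site was held by CA9 and ANGPTL4, called higher, and by HIF1A, called lower. EGLN1, EGLN2 and EPAS1, all under 1.5-fold, held a match as well. EGLN3, called higher, and HIF1AN, under 1.5-fold, did not. VEGFA could not be examined. Promoter windows of 300 bases from RefSeq (GRCh38.p14), 250 before and 50 from the start onward, matched 8 of the 10 genes, in 10 windows; VHL and VEGFA had none. The windows of the genes with the largest differences are shown from 5′ to 3′ on the gene's strand, with capitals for ACGTG or GCGTG on either strand, the core sequence that HIF binds. They are CA9 at chr9:35673678-35673977, ANGPTL4 at chr19:8363905-8364204, EGLN3 at chr14:33951025-33951324 on the minus strand and the upstream window of HIF1A at chr14:61695263-61695562.
CA9: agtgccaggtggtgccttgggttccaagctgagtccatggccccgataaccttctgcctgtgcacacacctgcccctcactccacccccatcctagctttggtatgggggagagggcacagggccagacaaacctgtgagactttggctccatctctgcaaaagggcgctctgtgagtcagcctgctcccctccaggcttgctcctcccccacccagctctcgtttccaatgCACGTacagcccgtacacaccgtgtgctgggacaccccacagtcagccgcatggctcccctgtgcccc
ANGPTL4: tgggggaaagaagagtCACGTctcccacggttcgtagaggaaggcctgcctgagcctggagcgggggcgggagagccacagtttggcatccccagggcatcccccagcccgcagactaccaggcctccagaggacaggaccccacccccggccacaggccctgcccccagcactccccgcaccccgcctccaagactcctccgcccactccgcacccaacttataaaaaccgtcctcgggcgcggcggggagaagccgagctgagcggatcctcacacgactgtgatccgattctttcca
EGLN3: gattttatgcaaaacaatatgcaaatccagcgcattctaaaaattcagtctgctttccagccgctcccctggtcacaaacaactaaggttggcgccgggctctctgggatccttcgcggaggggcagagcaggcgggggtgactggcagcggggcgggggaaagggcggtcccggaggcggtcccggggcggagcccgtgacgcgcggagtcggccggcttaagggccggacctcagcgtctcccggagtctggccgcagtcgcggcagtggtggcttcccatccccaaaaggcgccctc
HIF1A: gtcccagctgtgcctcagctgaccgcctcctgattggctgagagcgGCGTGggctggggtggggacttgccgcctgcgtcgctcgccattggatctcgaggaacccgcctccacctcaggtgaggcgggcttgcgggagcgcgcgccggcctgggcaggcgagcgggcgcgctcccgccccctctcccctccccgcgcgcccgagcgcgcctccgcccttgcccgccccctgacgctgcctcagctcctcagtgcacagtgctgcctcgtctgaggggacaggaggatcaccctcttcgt
In CA9 the match is CACGT, the reverse complement of ACGTG, and begins 18 bases before the start. In ANGPTL4 the same letters begin 234 bases before it, and in HIF1A GCGTG begins 204 bases before it. EGLN3 held no match in this window. Either core was present in 6 of the 10 windows and in 48.4% of 35116 such windows, and ACGTG in 4 of the 10 and in 21.4% of all. In the upstream EGLN2 window both ACGTG matches overlap in one CACGTG, which is also an E-box. AAGGTCA, the half-site bound by the nuclear receptor ERRα, a partner of PGC-1α, was in none of the 10 windows and in 3.92% of all. Letters in a window are not a binding site, and none of these data measure binding.

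Other hypoxia-inducible genes, on a list chosen with earlier results of these data known, were called higher more often than measured genes as a whole. This is a description, with no test. Of 51 listed without the 10 genes, 49 were measured. Of these 12, or 24.5%, were called higher, against 5.3% of all measured genes. None was called lower, against 3.92% of all measured genes. The median log2 ratio of the 49 was 0.28, against -0.01 over all measured genes, and 37 of the 49 had ratios above 1. PPFIA4, which encodes liprin-α4, stood at 1.48 (0.89 to 2.13) with 80 counts in the PGC-1α library and 32 in the control. The glucose transporter gene SLC2A3 had 1280 counts in the PGC-1α library and 616 in the control, a log2 ratio of 1.23. FAM162A, a mitochondrial protein gene induced through HIF-1α, had 1489 counts in the PGC-1α library and 751 in the control, a log2 ratio of 1.16 (1.03 to 1.29). The glycolytic isomerase gene GPI, at 1907 CPM in the PGC-1α library and 1003 CPM in the control, stood at 0.93.

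Sorted by role after their values were seen, 7 of 20 genes of glucose uptake and glycolysis were called higher, against 5.3% of all measured genes, with a median of 0.32. The same share applies to the smaller groups that follow. Of 5 mitochondrial genes 2 were, FAM162A and PDK1, the kinase gene that restrains pyruvate dehydrogenase, at 0.86 (0.56 to 1.16). Of 10 genes of the matrix and secretory pathway only LOX, a collagen cross-linking enzyme gene, was, at 0.71 with 64 counts in the PGC-1α library and 44 in the control. Of the 14 remaining genes PPFIA4 and ANKRD37 were, and ANKRD37 shares 35.2% of its exon bases with the more abundant UFSP2. While 37 of the 49 had ratios above 1, well-known targets of HIF-1α also lay on the other side of 0. BNIP3, a mitophagy receptor gene, stood at -0.10 with 1682 counts in the PGC-1α library and 2027 in the control, and CA12 at -0.45. The glucose transporter gene SLC2A1 stood at -0.07 with 4657 counts in the PGC-1α library and 5518 in the control. ENO1 of glycolysis stood at -0.06 and the lactate transporter gene SLC16A3 at -0.14. Of 6 genes reported to lean on HIF-2α 5 were measured. None was called higher and 1 lower, against 5.3% and 3.92% of all measured genes. The gene called lower was TGFA, a ligand gene of the EGF receptor, at -0.81 (-1.15 to -0.48). It had 115 counts in the PGC-1α library and 227 in the control. EPO had 1 count in each library.

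**Figure D4:**
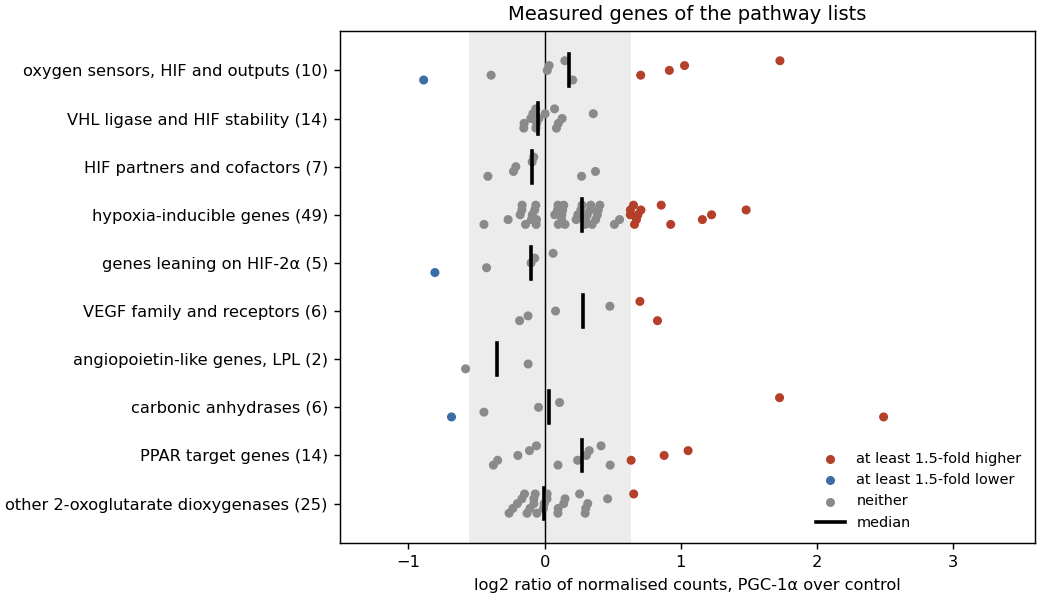
Log2 ratios, PGC-1α library over control, of the measured genes of each list (number in brackets; 1 point per gene, spread vertically for legibility), coloured by call at 1.5-fold, with the list's median as a black bar; the grey band spans the 5th to 95th percentile of measured genes. Of the measured hypoxia-inducible genes 12, or 24.5%, were called higher, against 5.3% of all measured genes. None was called lower, against 3.92%. The genes of HIF stability and the HIF cofactors stayed inside the band. All lists were chosen with earlier results of these data known.

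The families of the outputs gave context for each. Among the VEGF ligands, VEGFC, known for growth of lymphatic vessels, had 342 counts in the PGC-1α library and 237 in the control, a log2 ratio of 0.70 (0.46 to 0.95). PGF, the placental growth factor gene, stood at 0.83 (0.40 to 1.27) with 117 counts in the PGC-1α library and 74 in the control. These were the 2 genes called among 6 measured of 9 VEGF ligands and receptors other than VEGFA, against 5.3% of all measured genes called higher. VEGFB, the highest ligand in FPKM at 17.4 in the PGC-1α library and 16.7 in the control, stood at 0.08 (-0.08 to 0.24). FPKM divides by the union of a gene's exons, 1545 bases for VEGFB and 14431 for VEGFA, so the order of the ligands depends on that length. In counts VEGFB was below VEGFA, with 655 in the PGC-1α library and 698 in the control. The receptor genes FLT1 and KDR had 0 counts in both libraries. The limit that a count of 0 allows, 3 counts, equals 0.124 CPM in the PGC-1α library and 0.110 CPM in the control. Other receptor genes were measured. FLT4 had 187 counts in the PGC-1α library and 151 in the control, a log2 ratio of 0.48 (0.16 to 0.80). NRP1 stood at -0.12 and NRP2 at -0.18, and none of these was called.

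Among other carbonic anhydrases, 6 of 14 were measured, 2 were called higher and 1 lower, against 5.3% and 3.92% of all measured genes. CA2, the abundant cytosolic form of many tissues, had 416 counts in the PGC-1α library and 83 in the control, a log2 ratio of 2.49 (2.15 to 2.86). CA13, also cytosolic, had 92 counts in the PGC-1α library and 31 in the control, a log2 ratio of 1.73 (1.14 to 2.38). CA11, a related protein without catalytic activity, was lower, with 355 counts in the PGC-1α library and 643 in the control and a log2 ratio of -0.68 (-0.88 to -0.50). CA12, the other hypoxia-inducible membrane form, stood far above CA9 at 480 CPM in the PGC-1α library and 654 CPM in the control. CA9 and CA12, at log2 ratios of 0.92 and -0.45, lay on opposite sides of 0, and the ratio of their counts differed by 1.37 on the log2 scale (0.79 to 1.95).

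ANGPTL4 had few measured relatives. Of 11 other angiopoietin, angiopoietin-like and lipoprotein lipase genes only LMF1 and ANGPT1 were measured, at -0.12 (-0.36 to 0.12) and -0.58 (-1.23 to 0.03), and neither was called. LPL, the enzyme that ANGPTL4 inhibits, had 2 counts in the PGC-1α library and 0 in the control. Of 23 PPAR target genes 14 were measured, 3 were called higher and none lower, against 5.3% and 3.92% of all measured genes, and their median was 0.27. The called genes were UCP3, a mitochondrial carrier gene, at 1.05 (0.59 to 1.54), ACADM, of fatty acid oxidation, at 0.88 (0.77 to 0.99), and PLIN4, a lipid droplet coat gene, at 0.64 (0.08 to 1.21). Of the 14 measured, 9 had ratios above 1, among them CPT1A at 0.33 and SLC25A20 at 0.48, both under 1.5-fold. The classical targets PLIN2 at -0.11 and PDK4 at -0.35 had ratios below 1. PLIN5 fell under the filter, with 21 counts in the PGC-1α library and 1 in the control. CPT1A, SLC25A20, PLIN2, PDK4 and PLIN5 were named after their values were seen.

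**Figure D5:**
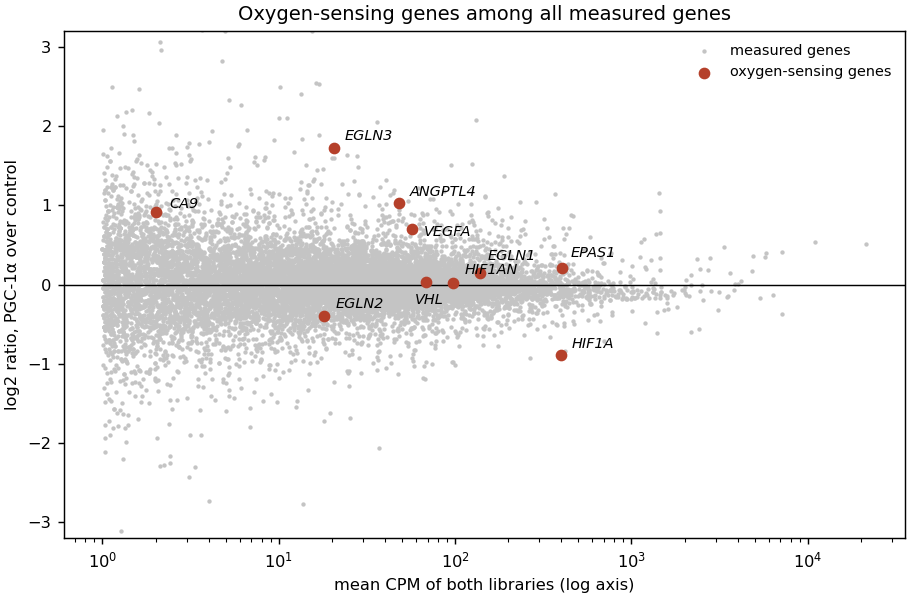
Log2 ratio, PGC-1α library over control, against the mean CPM of both libraries (log axis) for measured genes (grey) and the 10 oxygen-sensing genes (red); 22 measured genes beyond 3.2 in either direction are not drawn. Ratios spread widely at low levels, where CA9 lies, and little at the level of HIF1A and EPAS1.

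By level per length the 10 genes ranked EPAS1, HIF1A, ANGPTL4, EGLN1, VHL, HIF1AN, VEGFA, EGLN3, EGLN2 and CA9 in the PGC-1α library. In the control the order was HIF1A, EPAS1, EGLN1, VHL, ANGPTL4, HIF1AN, EGLN2, VEGFA, EGLN3 and CA9. ANGPTL4, at 25.9 FPKM in the PGC-1α library and 12.9 FPKM in the control, thus stood above EGLN1 and VHL in the first order and below them in the second. Within the PGC-1α library no neighbours in the order had overlapping counting intervals, the closest being VEGFA at 4.84 FPKM (4.62 to 5.08) and EGLN3 at 4.27 FPKM (3.97 to 4.59). Within the control, EGLN2 at 3.15 FPKM (2.89 to 3.42) and VEGFA at 3.01 FPKM (2.84 to 3.19) overlapped, and so, by a small margin, did EGLN3 at 1.30 FPKM (1.15 to 1.47) and CA9 at 0.840 FPKM (0.594 to 1.15). These intervals do not settle the order, which also depends on the exon lengths used, from 1670 bases for CA9 to 14431 for VEGFA. For EGLN2 and CA9 it depends on shared exons as well.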

How the data were processed

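Per the file headers, each deposited table gives a count or the authors' FPKM per Ensembl gene, with symbol, coordinates and length. The submitters' processing notes list TopHat2 2.0.9, Bowtie2 2.0.6, Cuffdiff 2.1.1 and Cufflinks 2.1.1 without roles. No source used here states the counting program, strand setting, genome build or annotation. Start and end equalled GENCODE release 29 (GRCh38) for 97.6% of 58039 shared identifiers and gene length equalled the union of its exons for 96.6%, so coordinates are read as GRCh38 and exon sharing was taken from that release. FPKM equalled count over length and a single library size for every gene above 0 (25858 in the PGC-1α library, 25852 in the control; relative tolerance 1e-06), so FPKM is no separate measurement.

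Counts were scaled by TMM normalisation (edgeR 4.0.16, R 4.3.3; factors 0.995 for the PGC-1α library, 1.01 for the control). Log2 ratios used counts plus 0.5, and intervals are Clopper-Pearson bounds of the split of both counts; ratios of 2 genes carry normal-approximation intervals on the log scale, and FPKM intervals are exact Poisson. The edgeR quasi-likelihood test could not be fitted with 1 library per group, so no p-value is given. Intervals treat each read as an independent molecule, which libraries without molecular identifiers do not ensure. The ratio and its interval were run on simulated data with Poisson counting error alone, which the interval also assumes. That run says nothing about variation between replicate libraries. Scripts ran in Python 3.11.15 with scipy 1.17.1, numpy 2.4.6, matplotlib 3.10.9 and pandas 2.3.3.

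The members, lists and alternatives were chosen with earlier results of these data known. From each of 9 lists the genes called were named, up to 4 by absolute ratio where more than 5 were called, or the 3 most expressed where none was; any other gene in the text, such as BNIP3, CA12, EPO, LPL, MIF, PDK1 and VEGFB, was chosen after its value was seen, whether or not the text says so there. Scaling, the added constant, the low-count filter, overlapping genes, the fold threshold and the FPKM scale were varied.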

Additional observations from a re-analysis of the deposited data

How the results depend on the processing

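EGLN3 and ANGPTL4 were called higher under every alternative that kept them (EGLN3 left the set without overlapping genes), and HIF1A was called lower under all but the 2-fold threshold. Over the scalings tried (TMM, DESeq2 1.42.0 size factors, total counts, upper quartile and, added after seeing the data, totals without the mitochondrial genome) HIF1A lay between -0.91 and -0.87, EGLN3 between 1.71 and 1.75, ANGPTL4 between 1.01 and 1.05, VEGFA between 0.69 and 0.72 and CA9 between 0.90 and 0.93. Members called higher numbered 4, against 2 with 1 added to FPKM (VEGFA at 0.54 and CA9 at 0.48), 2 without overlapping genes, which leaves out CA9 and EGLN3, 3 among genes averaging 5 CPM or more, which leaves out CA9, and 2 at 2-fold; members called lower numbered 1, against 0 at 2-fold. Over all genes 750 were called higher and 555 lower, against 275 and 215 with 1 added to FPKM, 1301 and 885 without a filter, 382 and 267 among genes averaging 5 CPM or more, and 248 and 164 at 2-fold. The FPKM calls carry no interval. The median of the other hypoxia-inducible genes stayed between 0.19 and 0.29. For the 32 genes taken by the naming rule, of 224 values under alternatives 206 stayed within their counting interval, 18 moved beyond it and 0 changed sign among called genes; genes named outside that rule were not recomputed. Depth limits CA9 most, with 64 counts in the PGC-1α library and 38 in the control. No paired analysis was possible because each group holds 1 library.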

Other observations

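MIR210HG, the host transcript of the hypoxia-induced microRNA miR-210, was looked up after the other values were seen. It had 67 counts in the PGC-1α library and 40 in the control, a log2 ratio of 0.91 (0.33 to 1.52), close to that of CA9 and with as few counts.

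The 2 other measured genes within 500 kb of HIF1A both had ratios below 1. PRKCH, a protein kinase C gene, had 137 counts in the PGC-1α library and 270 in the control, a log2 ratio of -0.80 (-1.11 to -0.50). SNAPC1, of the complex that transcribes small nuclear RNA genes, had 377 counts in the PGC-1α library and 534 in the control, a log2 ratio of -0.33 (-0.52 to -0.14). Whether the neighbouring genes differ together was not tested.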
